A study of Homo sapiens with 4 samples.

Results

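The 9 genes described here encode inflammatory cytokines and growth factors: IL1A and IL1B of the IL-1 family, IL6, TNF with the lymphotoxins LTA and LTB, the colony-stimulating factors CSF1 and CSF2, and hepatocyte growth factor, HGF. Their measurements are every probe set of the array whose single gene symbol in the array annotation is one of these 9, which gave 18 of the 54675 probe sets, for 8 of the 9 genes, among 19775 symbols on the array. No probe set carries CSF2 as its single symbol in that annotation, so CSF2 was not analysed here. Total RNA of 2 lines of cutaneous T cell lymphoma was measured on 4 arrays, 1 for each line and condition. MyLa is a line of mycosis fungoides, a lymphoma of skin-homing T cells, and HH is described by its labels only as a cutaneous T cell lymphoma line. Both lines stood for 40 hours in 0.1% serum, the control arrays without IL-32g and the others with IL-32g, the gamma isoform of the cytokine interleukin-32, at 5 ng/ml. Low serum was thus shared by all 4 arrays, and each line is a single model.

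IL-1, TNF and IL-6 are released early in inflammation and act on receptors of many cell types, where IL-1 and TNF switch on NF-κB and with it further cytokine and chemokine genes. LTA is a secreted ligand of the TNF receptors and joins with membrane-bound LTB to form the ligand of the lymphotoxin beta receptor, which shapes lymphoid tissue. CSF1 and CSF2 support macrophages and other myeloid cells, and HGF, mostly a product of mesenchymal cells, acts through the receptor tyrosine kinase MET. Activated T cells are known to make TNF, LTA, LTB and CSF2, whereas IL1B and IL6 come mainly from myeloid and stromal cells.

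Levels are given on a log2 scale for each probe set, and a level of 5 or more was taken as measured. The lowest value in the table is 2.13. Each array had 42.9% to 43.3% of its probe sets at 5 or more. With 1 array per condition a difference between IL-32g and control within a line has no replicate check and no test. The precision is limited by how few arrays there are. T cell markers were measured for 7 of the 12 genes with a probe set on each MyLa array and for 10 on each HH array. CD3D, CD247 and CD2 were measured in both lines, whereas CD4, CD3E and CD5 were below 5 in MyLa, and CD7 and LCK in both. The probe set at the 5′ end of ACTB, a control of RNA integrity and labelling, was higher with IL-32g by 1.69 in MyLa and by 0.89 in HH, while its 3′ partner differed by -0.08 and -0.03. The 5′ probe set of GAPDH was higher too, by 0.68 and 0.15, against 0.04 and 0.03 at its 3′ end. The part of these shifts in the results was not tested.

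Of the 18 probe sets, 8 were measured on at least 1 array and 10 lay below 5 on all 4, against 48.0% of all probe sets measured somewhere. The 8 belong to 6 genes, IL1A, TNF, LTA, LTB, CSF1 and HGF. IL1B and IL6 were below 5 everywhere. Only 2 probe sets, one of IL1A and that of LTA, were measured on all 4 arrays. Another 4, of IL1A, TNF, LTB and CSF1, were measured in MyLa only, and 2, both of HGF, in HH only. Among the 26233 probe sets measured on some array, 9.19% were measured in MyLa only and 7.75% in HH only.

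**Figure D1:**
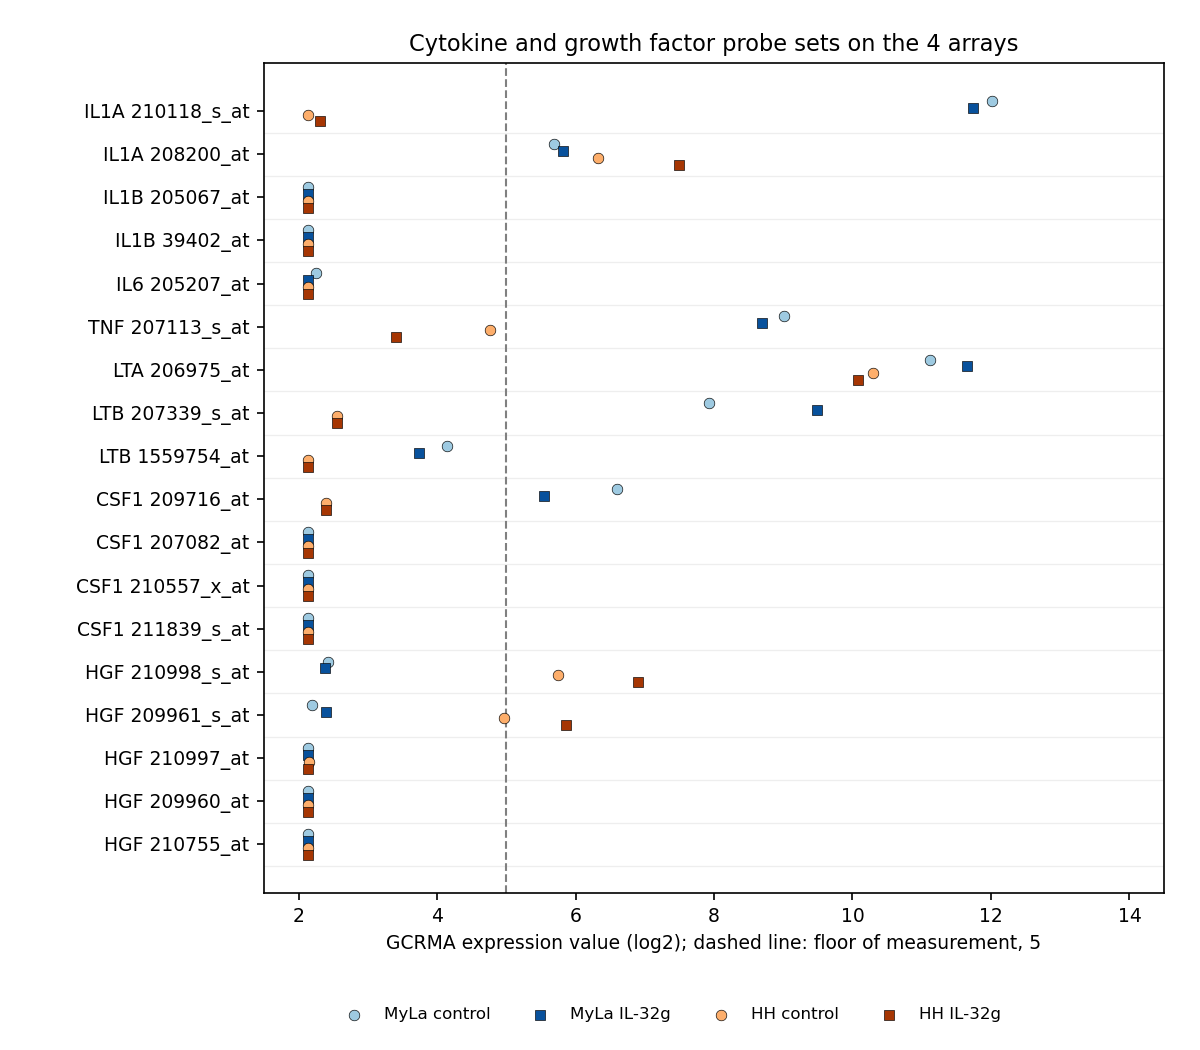
Log2 expression value (x axis) of the 18 cytokine and growth factor probe sets (y axis) on each of the 4 arrays, with circles for control and squares for IL-32g and a dashed line at the floor of 5. The TNF, LTB and CSF1 values above the line are those of MyLa, and the HGF values above it are those of HH.

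IL1A encodes IL-1 alpha, which is active in its precursor form and can be kept on the cell surface or released on cell damage. The IL1A probe set 210118_s_at read 12.01 without and 11.73 with IL-32g in MyLa, and 2.13 and 2.30 in HH. Both MyLa values were thus far above both HH values, which lie at the bottom of the scale. The other IL1A probe set, 208200_at, read 5.68 and 5.81 in MyLa without and with IL-32g, and 6.32 and 7.50 in HH. On it both HH values were above both MyLa values, so the 2 probe sets order the lines in opposite directions. The annotation gives both the single symbol IL1A, and whether either reads another transcript was not tested.

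IL1B, the secreted IL-1 that inflammasomes activate, had 2 probe sets, 205067_at and 39402_at, and both stood at the lowest value of 2.13 on all 4 arrays. IL6, the ligand of the IL-6 receptor, on 205207_at read 2.25 in untreated MyLa and 2.13 on the remaining 3 arrays. Neither gene was above the floor on any array.

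TNF, the founding ligand of its family, on 207113_s_at read 9.01 without and 8.69 with IL-32g in MyLa, and 4.77 and 3.40 in HH. Only the MyLa values were above the floor, and the HH values lay below it. LTA on 206975_at read 11.12 and 11.66 in MyLa without and with IL-32g, and 10.30 and 10.08 in HH. LTA was measured on every array, with both MyLa values above both HH values. LTB, on probe set 207339_s_at, read 7.92 without and 9.49 with IL-32g in MyLa, and 2.56 on both HH arrays. LTB thus showed the widest gap between the MyLa arrays among these 3 ligands and no measurable level in HH. Its other probe set, 1559754_at, stayed below 5 on every array, at 4.14 and 3.74 in MyLa and 2.13 in HH.

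TNF, LTA and LTB are neighbours on chromosome 6, with TNF between the lymphotoxins. The 250 bases before their start sites are shown because 1 of these neighbours was measured in both lines and the other 2 in MyLa only. The windows are from RefSeq on GRCh38.p14, and both strands were searched for an NF-κB motif, TGANTCA (AP-1), GGAAAA (the core of an NFAT motif) and TATAAA (the TATA box). The NF-κB motif was met as GGAAAGTCCC in LTB and as GGGATTTTCC in IL6. Capitals mark the matches. The sequences run 5′ to 3′ towards the start of LTA (chr6:31572039-31572288, plus strand), TNF (chr6:31575315-31575564, plus strand) and LTB (chr6:31582426-31582675, minus strand).
LTA: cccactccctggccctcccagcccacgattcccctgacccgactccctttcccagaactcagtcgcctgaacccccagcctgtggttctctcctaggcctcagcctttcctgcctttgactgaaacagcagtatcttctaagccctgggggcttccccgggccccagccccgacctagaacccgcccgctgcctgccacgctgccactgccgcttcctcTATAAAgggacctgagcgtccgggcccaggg
TNF: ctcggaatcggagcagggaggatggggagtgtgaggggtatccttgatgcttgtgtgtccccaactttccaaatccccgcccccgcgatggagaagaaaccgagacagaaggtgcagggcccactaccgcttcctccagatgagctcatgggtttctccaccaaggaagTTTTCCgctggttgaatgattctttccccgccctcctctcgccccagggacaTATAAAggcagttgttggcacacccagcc
LTB: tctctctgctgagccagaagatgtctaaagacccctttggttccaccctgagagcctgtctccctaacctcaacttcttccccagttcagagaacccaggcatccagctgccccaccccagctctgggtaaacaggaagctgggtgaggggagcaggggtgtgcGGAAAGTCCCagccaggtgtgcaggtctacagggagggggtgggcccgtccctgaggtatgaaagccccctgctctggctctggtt
LTA held a TATA box match 31 to 26 bases before its start and TNF one 29 to 24 bases before its own. The TNF window also held 1 NFAT core match, in reverse. The LTB window held the NF-κB motif in reverse, 86 to 77 bases before the start, and no TATA box match. LTA has another, upstream start in the table, whose window held none of the 4 motifs. Of 35116 windows of this length, 0.527% held the NF-κB motif, 21.2% the NFAT core, 10.7% the TATA box and 6.57% the AP-1 motif. A match describes letters and shows no binding.

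The window of IL6 (chr7:22726950-22727199, plus strand) and that of IL1A (chr2:112784494-112784743, minus strand) are set beside them, the first because it was the other one of these genes with the NF-κB motif, the second because IL1A had the widest gap between the lines.
IL6: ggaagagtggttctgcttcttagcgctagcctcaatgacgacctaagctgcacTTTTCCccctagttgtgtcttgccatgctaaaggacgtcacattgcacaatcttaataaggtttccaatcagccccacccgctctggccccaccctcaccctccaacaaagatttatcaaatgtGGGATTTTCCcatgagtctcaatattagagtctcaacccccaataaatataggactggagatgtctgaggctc
IL1A: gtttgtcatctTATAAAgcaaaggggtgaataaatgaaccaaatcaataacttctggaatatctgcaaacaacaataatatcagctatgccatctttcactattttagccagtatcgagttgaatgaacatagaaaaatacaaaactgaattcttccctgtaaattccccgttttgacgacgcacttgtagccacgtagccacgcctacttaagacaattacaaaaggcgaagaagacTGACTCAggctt
IL6 held the NF-κB motif 73 to 64 bases before its start, with an NFAT core match inside it and another further upstream. Its level was below the floor on all arrays, while that of LTB was above it in MyLa. The IL1A window shown held an AP-1 match 12 to 6 bases before the start and TATAAA far upstream of it, 239 to 234 bases before. The window of a second IL1A start held AP-1 matches 105 to 99 and 55 to 49 bases before that start, and no TATAAA. The window of HGF held no match, and that of IL1B held 2 of the NFAT core.

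CSF1, the growth factor of macrophages, read 6.60 without and 5.54 with IL-32g in MyLa on probe set 209716_at, and 2.40 on both HH arrays. Only MyLa was above the floor, and its IL-32g value lay close to it. The other 3 CSF1 probe sets, 207082_at, 210557_x_at and 211839_s_at, were between 2.13 and 2.14 on all arrays.

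HGF was measured in HH alone. Probe set 210998_s_at read 5.75 without and 6.90 with IL-32g in HH, against 2.43 and 2.38 in MyLa. Probe set 209961_s_at read 4.97 and 5.86 in HH and 2.20 and 2.39 in MyLa. Both probe sets were higher on the HH IL-32g array than on the HH control array. The remaining 3 HGF probe sets, 209960_at, 210755_at and 210997_at, stood between 2.13 and 2.16 on all 4 arrays. Fewer cells that make a transcript and less of it per cell cannot be told apart in such bulk RNA.

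The first comparison asked what IL-32g does to these transcripts in MyLa. LTB was higher with IL-32g, by 2.96-fold (log2 difference 1.57), and CSF1 was lower, by 2.09-fold (log2 difference -1.06). LTA differed by 0.54, which is short of 1.5-fold, IL1A by -0.28 (210118_s_at) and 0.13 (208200_at), and TNF by -0.32. Thus 1 of 6 measured probe sets was at least 1.5-fold higher and 1 at least 1.5-fold lower, with a median of -0.07. Of all 24199 probe sets measured in MyLa, 11.0% were that much higher and 9.14% that much lower, with a median of -0.05, so the members' counts lie near the background. Dim probe sets differed more between the arrays than bright ones. Among the 3100 as bright as LTB in MyLa (mean within 0.5), 1.48% were as high as it or higher. Among the 1989 as bright as CSF1, 8.55% were as low or lower, and 44.3% passed 1.5-fold in either direction. Among the 3311 as bright as LTA, 7.04% were as high or higher. The LTB call rests on 1 of its 2 probe sets, and as the mean of both LTB stood at 0.58, under 1.5-fold.

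In HH, IL1A and HGF read higher with IL-32g. IL1A on probe set 208200_at was higher by 2.25-fold (log2 difference 1.17) and HGF on 210998_s_at by 2.23-fold (log2 difference 1.16). HGF on 209961_s_at, below 5 without IL-32g, was higher by at least 1.81-fold. LTA, the 1 other measured probe set, differed by -0.22. So 3 of 4 measured probe sets, of 2 genes, were at least 1.5-fold higher and none lower, with a median of 1.01. Of all 23821 probe sets measured in HH, 5.43% were higher by 1.5-fold and 4.02% lower, with a median of -0.03. The 2 HGF probe sets share a gene and are not separate evidence, and 209961_s_at was counted only because its IL-32g array passed 5, which fixed its direction. Nothing is read from this count and median. All 3 lay near the floor, where differences are wide. Among the 2121 probe sets as bright as IL1A in HH 24.4% passed 1.5-fold and 2.83% were as high or higher, and among the 1940 as bright as HGF on 210998_s_at these shares were 27.6% and 4.18%. The other IL1A probe set was below 5 on both HH arrays. Averaged over a gene's probe sets neither IL1A nor HGF reached the floor in HH.

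**Figure D2:**
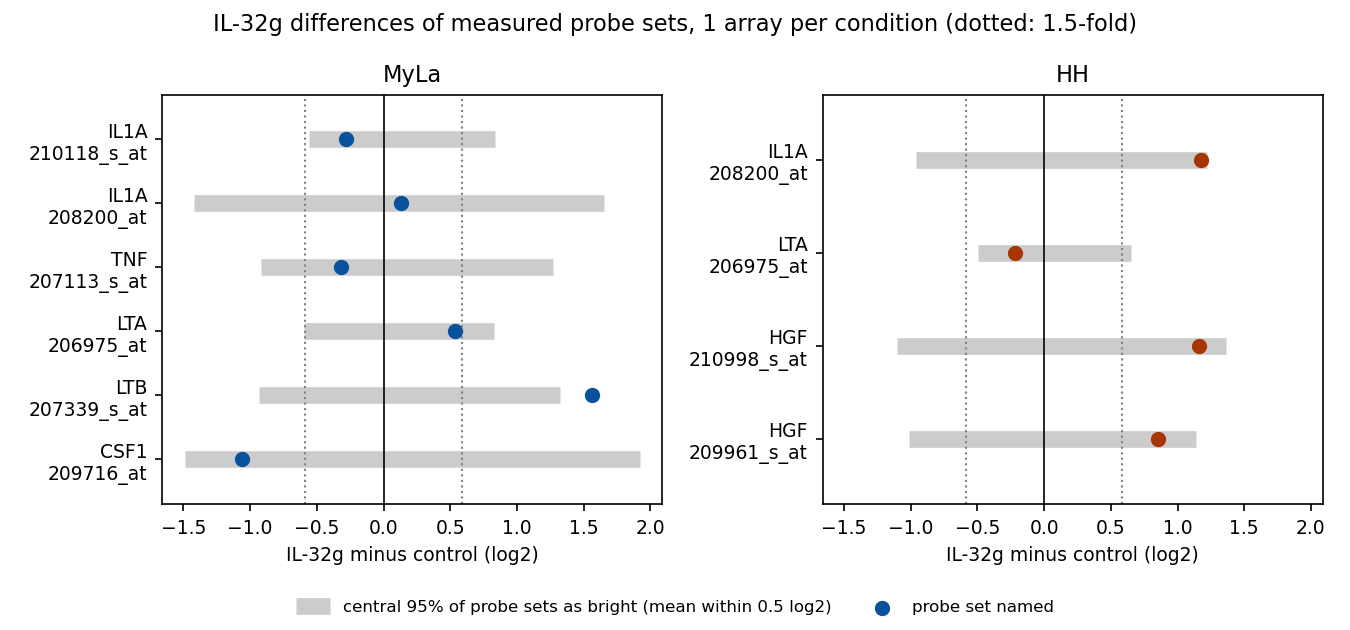
IL-32g minus control (log2, x axis) for each probe set measured in MyLa (left) or HH (right), values below 5 raised to 5, beside the central 95% of the differences of all probe sets as bright (grey bars), with dotted lines at 1.5-fold. LTB in MyLa lies beyond its bar, and the other points lie within theirs.

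Taking the lines as replicates, limma with a block for line called 0 of the 7 member probe sets measured on at least 2 arrays, and 0 also at an unadjusted p under 0.05. Their adjusted p-values ran from 0.570 for IL1A on 208200_at (estimate 0.65 ± 0.31, SE) to 0.794 for LTA (0.16 ± 0.24, SE). LTB was at 0.78 ± 0.45 (SE) and CSF1 at -0.53 ± 0.32 (SE), each with the difference set to 0 in HH, where it was not measured. No probe set of the 25273 fitted passed the adjusted threshold, a share of 0.00%, and 10.1% passed the unadjusted one. This fit has 1 residual degree of freedom.

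LTA and IL1A on 208200_at, measured in both lines, allow the responses to be set side by side. LTA was higher with IL-32g in MyLa and lower in HH (0.54 against -0.22), a difference of 0.75 between the responses. IL1A on 208200_at was 0.13 in MyLa and 1.17 in HH, a difference of -1.04, and was positive in both. Over the 21787 probe sets measured in both lines, 17.3% had responses that differed by 1.5-fold or more, 35.0% had responses of opposite sign and 26.8% were positive in both. With 4 arrays no test of this difference can be made.

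The second comparison set MyLa against HH, where each line has 2 arrays, one without and one with IL-32g. IL1A on 210118_s_at, TNF, LTB and LTA were higher in MyLa. IL1A was higher by at least 117-fold (log2 difference 6.87 ± 0.15, SE; adjusted p = 0.000162 in limma), and 7.01 apart on the control arrays and 6.73 on the IL-32g arrays. TNF was higher by at least 14.4-fold (3.85 ± 0.16, SE; adjusted p = 0.000535 in limma). LTB was higher by at least 13.0-fold (3.71 ± 0.58, SE; adjusted p = 0.0130 in limma), with 2.92 on the control arrays and 4.49 on the IL-32g arrays. LTA, measured on both sides, was higher by 2.30-fold (1.20 ± 0.24, SE; adjusted p = 0.0221 in limma), with 0.83 on the control and 1.58 on the IL-32g arrays. These bounds compare the mean of the MyLa arrays with HH values raised to the floor. As the mean of their probe sets LTB stood at 1.32 (adjusted p = 0.0125 in limma) and IL1A at 3.81 (adjusted p = 0.000105 in limma).

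CSF1, at 1.07 ± 0.40 (SE; adjusted p = 0.101 in limma), did not pass, nor did HGF on 210998_s_at (-1.32 ± 0.44, SE; adjusted p = 0.0755 in limma) or IL1A on 208200_at (-1.16 ± 0.45, SE; adjusted p = 0.104 in limma), although in each the arrays of one line lay above both of the other. At an adjusted p under 0.05 and 2-fold or more, 4 of 7 were called higher in MyLa and 0 lower, where of all 25273 probe sets fitted 18.2% were called higher and 16.9% lower, 35.1% in all. IL1A on 210118_s_at, TNF and LTB entered the fit only through the MyLa arrays, where they are high, so nothing is read from this count. The spread within a line also holds the IL-32g response, and raising both HH arrays to 5 leaves no spread within HH for IL1A (210118_s_at), TNF, LTB and CSF1, and raising both MyLa arrays none within MyLa for HGF, so their p-values rest on the floor. With no floor and no filter the adjusted p was 0.0705 for TNF, 0.0580 for LTB and 0.142 for LTA in limma, within ranges over all alternatives of 0.000286 to 0.0705, 0.00813 to 0.174 and 0.0159 to 0.205, while IL1A on 210118_s_at stayed between 6.68e-05 and 0.0296. LTB lost the call without either HH array (0.170 without the control array, 0.174 without the IL-32g array), and LTA lost it without any 1 of the 4 arrays, at 0.0515 without the MyLa control array, 0.0774 without the MyLa IL-32g array, 0.167 without the HH control array and 0.205 without the HH IL-32g array. HGF passed with treatment as a block, which pairs the arrays by condition (adjusted p = 0.0467 in limma), and with a floor of 4 (0.0218), as did CSF1 with that floor (2.07, 0.0237). Over all alternatives HGF ran from 0.0218 to 0.321 and CSF1 from 0.0141 to 0.395. IL1A on 208200_at passed at 0.0472 without the HH control array, as did HGF at 0.0315, and CSF1 passed at 0.0141 without the MyLa IL-32g array (at 0.0321 without the MyLa control array, but under 2-fold).

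**Figure D3:**
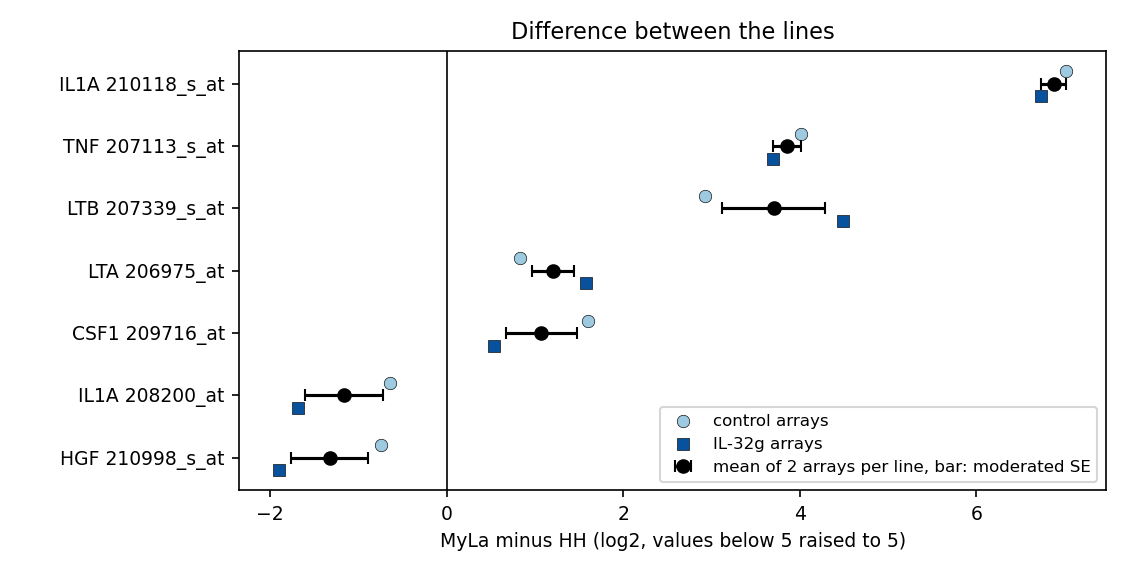
MyLa minus HH (log2, values below 5 raised to 5, x axis) for the 7 probe sets fitted, as the mean of 2 arrays per line with its moderated SE (black), and on the control arrays (circles) and IL-32g arrays (squares) alone. For each probe set the control and the IL-32g arrays lie on the same side of 0, with 5 probe sets on the MyLa side and 2 on the HH side.

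Genes beside LTA, TNF and LTB on chromosome 6 were looked at because they share a locus. Of 7 neighbours listed, 6 had a probe set and 4 were measured. LST1, a leukocyte gene next to LTB, was measured in MyLa only, with its 6 probe sets higher there by 2.53 to 3.75 (log2; adjusted p from 0.000280 to 0.00492 in limma). These probe sets can read shared transcripts and are not separate evidence. NFKBIL1, on the LTA side, read 6.76 and 8.25 in MyLa without and with IL-32g and 4.44 and 4.69 in HH. It was higher in MyLa by at least 2.50 ± 0.56 (log2, SE; adjusted p = 0.0301 in limma). PRRC2A, further out, was measured on all arrays, at 8.71 and 9.73 in MyLa and 9.90 and 9.63 in HH on 208132_x_at, and passed in neither direction (adjusted p = 0.318 in limma). In all, 8 of 11 probe sets of the neighbours were higher in MyLa (median 2.53) and none lower, against 18.2% and 16.9% of all probe sets. These 8, of LST1, NFKBIL1 and ATP6V1G2, were measured in MyLa only, so nothing is read from their count. With IL-32g in MyLa, 5 of 11 exceeded 1.5-fold upwards, the 3 of PRRC2A (0.74 to 1.02), NFKBIL1 (1.49) and 1 of LST1 (0.67), and none lower (median 0.46), against 11.0% and 9.14% of all probe sets. The 3 of PRRC2A share a gene. None of 3 passed 1.5-fold in HH.

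**Figure D4:**
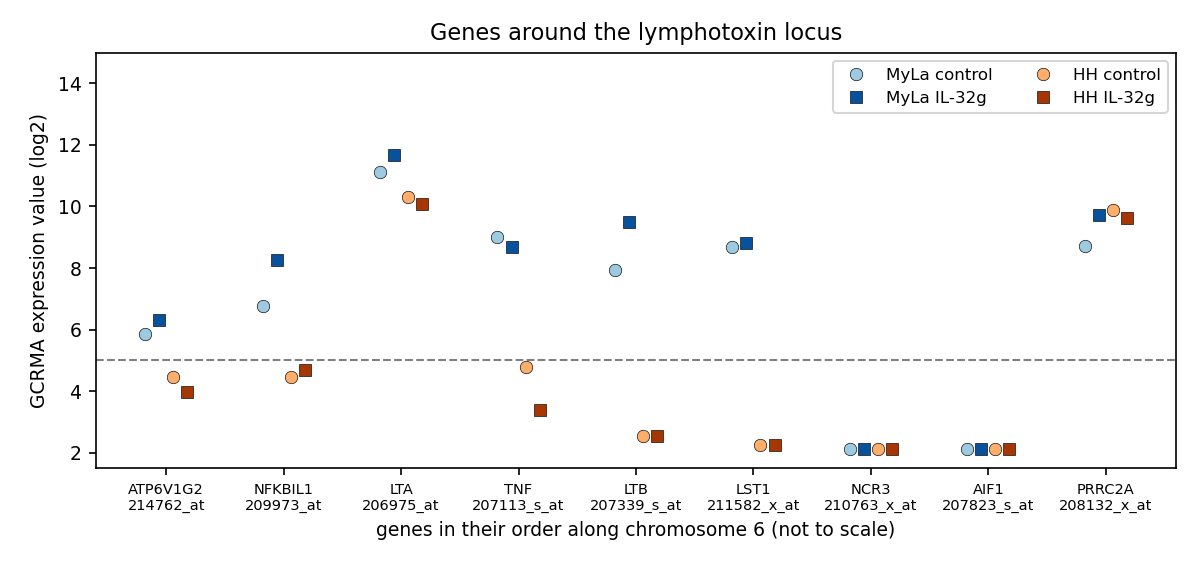
Log2 expression value (y axis) on the 4 arrays of the genes around LTA, TNF and LTB, each by its probe set with the highest value, in their order along chromosome 6 (x axis, not to scale), with a dashed line at the floor of 5. From ATP6V1G2 to LST1 and at PRRC2A the MyLa points lie above the line, whereas in HH only LTA and PRRC2A do.

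Of 13 genes for receptors of these ligands, 9 were measured, and of their 11 probe sets fitted 4 were higher in MyLa and 4 lower (median 0.35), against 18.2% and 16.9% of all probe sets. Higher were TNFRSF1A, IL1RAP, CSF2RB and 1 of 3 probe sets of IL6ST, and lower were MET, TNFRSF1B and both measured probe sets of IL6R. Those of TNFRSF1A and IL1RAP were measured in MyLa only, and those of MET and IL6R in HH only. They entered the fit through that line, so nothing is read from these counts. MET, the HGF receptor, read 12.78 and 12.79 in HH without and with IL-32g and 2.22 and 2.25 in MyLa, a log2 difference beyond -7.79 ± 0.10 (MyLa minus HH, SE; adjusted p = 0.000138 in limma). HH, where HGF was measured near the floor, is thus also where its receptor was measured. The MET reading rests on 203510_at, and the other MET probe sets were below 5 on all arrays. IL6R, the IL-6 receptor, was measured in HH only, at 11.96 and 12.15 on 226333_at, and read 2.89 and 3.58 in MyLa. The signalling subunit IL6ST was measured in both lines, at 10.84 and 11.11 in MyLa and 10.62 and 10.64 in HH on 212195_at.

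The TNF receptors split between the lines. TNFRSF1A, the death domain receptor, read 9.14 and 9.22 in MyLa and 2.61 and 2.76 in HH. TNFRSF1B, the receptor without a death domain, read 5.99 and 6.47 in MyLa and 12.87 and 12.91 in HH. The first was higher in MyLa by at least 4.18 ± 0.11 (log2, SE; adjusted p = 0.000216 in limma), and the second lower there (-6.65 ± 0.20, SE; adjusted p = 0.000304 in limma). TNFRSF14, which also binds LTA, was measured on all arrays with no call (0.05, adjusted p = 0.861 in limma). LTBR, the receptor of LTA with LTB, stood at 2.13 on all arrays, on every one of its probe sets.

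IL1RAP, the accessory chain of the IL-1 receptor, read 9.12 and 9.54 in MyLa and 2.19 on both HH arrays. IL1R1, the binding chain, stood at 5.29 in untreated MyLa, at 4.22 with IL-32g and at 2.24 in HH. IL1R2, the decoy receptor, was below 5 everywhere, as were CSF1R, the receptor of CSF1, and CSF2RA. CSF2RB, the shared chain of the CSF2, IL-3 and IL-5 receptors, read 10.43 and 10.05 in MyLa and 6.67 and 6.69 in HH. Past 1.5-fold with IL-32g were only IL6ST on 204863_s_at (0.87) and IL1RAP on 210233_at (-0.70), both in MyLa, while the brighter probe sets of these genes stood at 0.26 and 0.41, and the third IL6ST probe set at -0.53. The medians of the receptor probe sets with IL-32g were 0.17 over 10 in MyLa and 0.02 over 9 in HH.

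**Figure D5:**
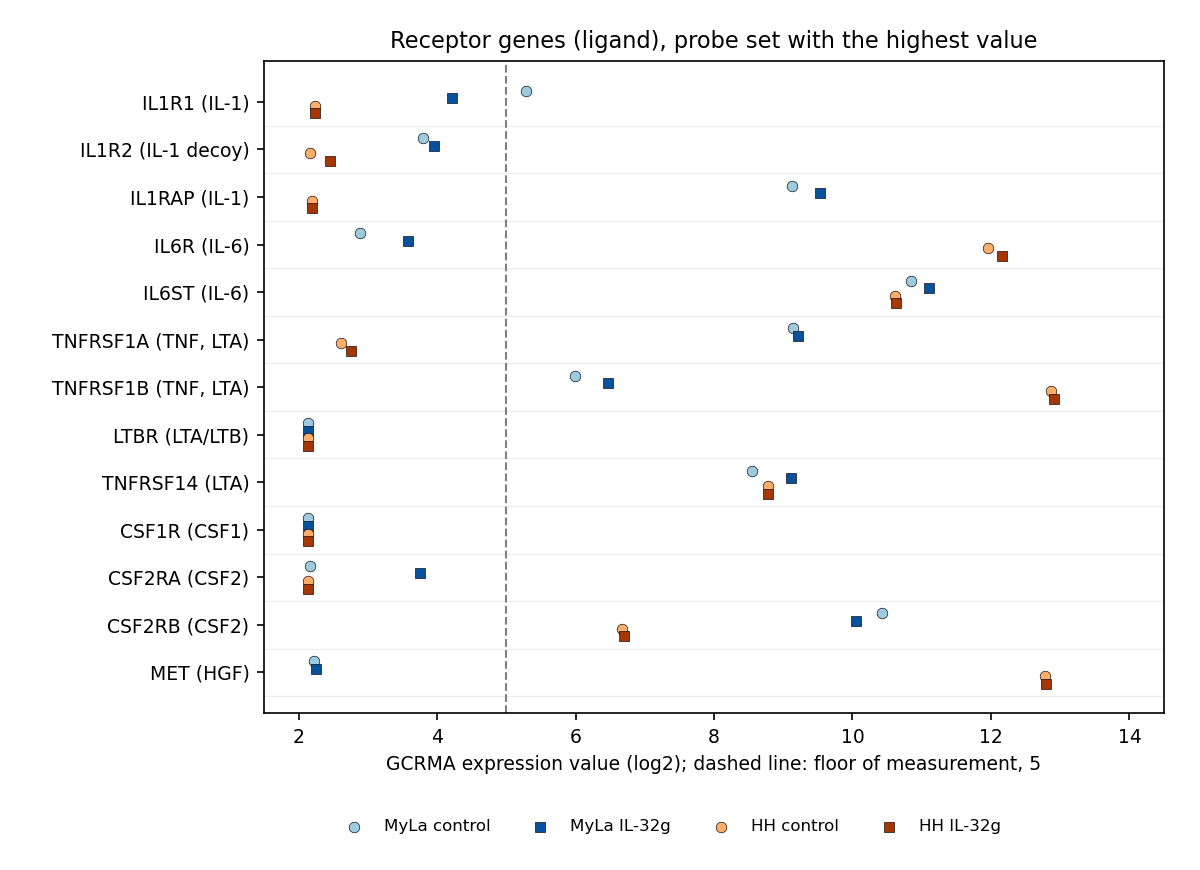
Log2 expression value (x axis) of 13 receptor genes, with their ligand in brackets (y axis), on the 4 arrays, each by its probe set with the highest value, with circles for control, squares for IL-32g and a dashed line at the floor of 5. MET, IL6R and TNFRSF1B are far to the right in HH, and TNFRSF1A, IL1RAP and CSF2RB in MyLa.

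Antagonists and proteases of the ligands followed. IL1RN, the IL-1 receptor antagonist, read 9.95 and 9.73 in MyLa and 2.13 and 2.57 in HH, higher in MyLa by at least 4.84 ± 0.13 (log2, SE; adjusted p = 0.000245 in limma). This rests on 212657_s_at, and the other IL1RN probe sets were below 5 on all arrays. IL18BP was lower in MyLa (-1.58, adjusted p = 0.00586 in limma), and the other 3 of 5 antagonist genes were below 5. Neither passed 1.5-fold with IL-32g, and the medians were -0.23 over 2 probe sets in MyLa and -0.32 over 1 in HH. Of 11 protease genes 5 were measured. CASP1, which cleaves pro-IL-1 beta, was below 5 on all arrays, and ADAM17, which sheds TNF, was measured in both lines, at 11.51 and 11.89 in MyLa and 12.27 and 12.51 in HH on 205745_x_at. With IL-32g in MyLa, ADAM17 on 205746_s_at was higher (at least 0.72) and ADAM10 on 202604_x_at lower (-1.08) of 11 probe sets (median 0.12). The other ADAM17 probe sets stood at 0.38 and -0.29 there, and the others of ADAM10 at 0.12 and 0.15. In HH ADAM10 on 214895_s_at was higher (1.18) of 10 (median 0.02), while its other probe sets stood at 0.03 and 0.01. Of all probe sets, 11.0% were higher with IL-32g by 1.5-fold and 9.14% lower in MyLa, and 5.43% and 4.02% in HH. Between the lines 2 of 10 protease probe sets were higher in MyLa (ADAM10 and CAPN2) and 2 lower (CAPN1 and CAPN2), with a median of -0.46. These counts lie near the 18.2% and 16.9% of all probe sets.

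Genes that IL-1 and TNF are known to induce came next. Of 22 probe sets fitted, 13 were higher in MyLa and 3 lower, of TNFAIP3 (both) and NFKB1, and the median was 1.75, against 18.2%, 16.9% and -0.01 over all probe sets fitted. Those of PTGS2, TNFAIP2, TNFAIP6, CXCL3 and CXCL8 among the 13 were measured in MyLa only and entered the fit through it, so nothing is read from the count. PTGS2, the inducible cyclooxygenase, read 13.10 and 12.99 in MyLa and 2.13 on both HH arrays on 204748_at. TNFAIP6, a secreted hyaluronan-binding protein, read 12.34 and 12.24 in MyLa and 2.13 in HH on 206026_s_at. The neutrophil chemokine genes CXCL3 and CXCL8 were higher in MyLa by at least 5.30 ± 0.13 and 4.10 ± 0.11 (log2, SE; adjusted p = 0.000194 and 0.000222 in limma). CXCL8 rests on 202859_x_at, its other probe set was below 5 on all arrays, and the related genes CXCL1 and CXCL2 stood at 2.13 throughout. With IL-32g in MyLa, 6 of 23 probe sets exceeded 1.5-fold upwards, NFKB2 on 207535_s_at (1.71) and TRAF1 on 235116_at (1.39) highest, and 1 was lower, ICAM1 on 202638_s_at (-0.70), against 11.0% and 9.14% of all probe sets. The median was 0.02, and the other measured probe sets of NFKB2 and TRAF1 stood at 0.10 and -0.23. ICAM1 was also among the higher, by at least 1.01 on 215485_s_at, and stood at -0.12 on 202637_s_at. PTGS2 and TNFAIP6 were higher on their dimmer probe sets (0.94 and 0.78), while their brighter ones stood at -0.11 and -0.10. In HH 0 of 15 passed 1.5-fold (median -0.07).

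Markers of cells known for these cytokines were measured alongside. Of 9 monocyte and macrophage genes with a probe set, ITGAM alone was measured, in MyLa, and the defining genes CD14, LYZ and CSF1R were at 2.13 on all arrays. The log2 of the list's summed level ran from 8.85 to 9.10 on the MyLa arrays and was 5.30 on the HH arrays. Of 8 fibroblast genes, 3 were measured on the MyLa control array, COL1A1, COL3A1 and POSTN, 2 on the MyLa IL-32g array, none on the HH control array and COL1A1 on the HH IL-32g array. Their summed level ran from 13.43 to 13.53 in MyLa and from 5.91 to 6.38 in HH, and COL1A2, DCN, LUM, PDGFRB and FBLN1 were below 5. All 7 fibroblast probe sets fitted, of COL1A1 and COL3A1, were higher in MyLa (median 5.73), against 18.2% of all probe sets. All of them except COL1A1 on 1556499_s_at were measured in MyLa only, so nothing is read from this count. With IL-32g 3 of 8 were lower in MyLa (POSTN, COL3A1 and COL1A1), against 9.14% of all probe sets. Of these, COL3A1 rests on 232458_at (-0.92) and COL1A1 on 202311_s_at (-0.60), and POSTN fell below 5 with IL-32g. The brighter probe sets of COL3A1 stood between -0.10 and 0.01 in MyLa, and those of COL1A1 at -0.48 and -0.11. In HH 1 was higher (COL1A1, at least 0.66). Of 15 T cell probe sets 0 were higher in MyLa and 7 lower (median -0.93), against 18.2% and 16.9% of all probe sets. Those of CD4, CD3E and CD5 among the 7 were measured in HH only, so nothing is read from the count. With IL-32g both of ZAP70 were higher and 1 of TRBC1 lower of 11 in MyLa, against 11.0% and 9.14% of all probe sets, and none passed 1.5-fold in HH. No B cell or endothelial gene was measured. Of 5 measured keratinocyte and epithelial probe sets CDH1 on 201131_s_at was higher in MyLa (at least 7.97). Those of KRT10 and KRT8 were measured in both lines, KRT8 at the same 5.09 on all 4 arrays, close to the floor. None passed 1.5-fold with IL-32g. KRT5, KRT14, KRT1, KRT18, EPCAM and the other CDH1 probe set were below 5 on all arrays. ITGAM on 205786_s_at, COL1A1 and COL3A1 thus lie on the same side as IL1A on 210118_s_at, TNF and LTB. Their part in these differences was not tested. ITGAM on 205785_at and all probe sets of COL1A2 stood at 2.13 on all arrays, and IL1A on 208200_at read higher in HH.

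Among 98 genes of the lists, the profiles nearest to each member over the 4 arrays were found by the distance between values centred on their mean. Nearest to IL1A on 210118_s_at were TNFSF4, the OX40 ligand (0.365), and TNFAIP6 (0.438). Nearest to TNF were ITGAM (0.0371) and CSF2RB (0.297). LTB lay nearest to TNFAIP2 (0.528) and IL5 (0.775), LTA to ATP6V1G2 (0.207) and TOLLIP (0.23), and CSF1 to POSTN (0.491) and MAP3K14 (0.587). For HGF on 210998_s_at and IL1A on 208200_at the nearest gene was CD3G (0.825 and 0.808), followed by HNRNPD (0.871) for HGF and KHSRP (0.863) for IL1A. HGF on 209961_s_at lay nearest to ZFP36L1 (0.536) and CNOT8 (0.6). With 4 arrays such a likeness is loose, and values raised to the floor in HH make MyLa-only genes alike.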

How the data were processed

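Total RNA of 4 cultures was amplified once, labelled with biotin and put on 1 array each, per the labels. The authors deposited log2 values per probe set made with GCRMA, per the submitters' processing notes. The sources used here do not state its version or a joint normalisation. The log2 scale was inferred from the range of the values. The 62 control probe sets were left out. Of 54675 probe sets, 41097 had 1 symbol, 1801 several and 11777 none, and 41043 matched a RefSeq gene by Entrez identifier (GRCh38.p14, names and order only).

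Values below 5 were raised to 5. Within a line, differences were counted at 1.5-fold where an array of the line reached 5, with no test. limma 3.58.1 (R 4.3.3) was fitted where 2 or more arrays reached 5, with line as a block for IL-32g (1 residual degree of freedom) and without a block between lines (2). Nothing in the labels makes the 2 arrays of a line separate cultures of 1 condition, so p-values measure only the spread between these arrays. Tests were two-sided, with Benjamini-Hochberg adjustment over all 25273 probe sets, a threshold of 0.05 and a 2-fold minimum between lines. The fits were tested on simulated data. Every member probe set is named. From 15 gene lists, 9 of functions and 6 of cell type markers, the genes of most counts of 5 or fewer and otherwise some of those differing most are named, beside receptors, markers and targets chosen after their values were seen. For each measured member the 2 nearest list genes are given. Members and lists were chosen with earlier results of these data known. Each array was left out in turn, and the floor (4, 6 or none), the scaling, the fold threshold, the summary per gene, the probe set types, the variance trend and the block were varied. Python 3.11.15 with pandas 2.3.3, numpy 2.4.6 and matplotlib 3.10.9 was used.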

Additional observations from a re-analysis of the deposited data

Results flagged for a closer look

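LTA went in opposite directions in the lines, higher with IL-32g in MyLa (0.54, log2) and lower in HH (-0.22), a difference of 0.75 between the responses. This difference was not tested, since each line has 1 array per condition.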

How the results depend on the processing

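The counts of members called with IL-32g kept their values under quantile normalisation and median centring of the arrays, in both lines. In MyLa the higher count of 1 became 2 at a lower fold threshold, with LTA added, and 0 with the mean of probe sets per gene or without _s_at, _x_at and _a_at probe sets, which leaves out LTB. The lower count of 1 became 0 with the mean of probe sets per gene. In HH the higher count of 3 became 0 with that mean, 1 with the brightest probe set per gene and 1 without those suffixes, and the lower count of 0 became 1 with a floor of 4 or with no floor, which is TNF. The count of responses that differ between lines, 2, became 1 with a floor of 6, the mean or the brightest probe set per gene, and 7 with no floor. Between lines the higher count of 4 became 5 with a floor of 4, with CSF1 added, 2 with no floor and 1 without those suffixes, and ran from 2 to 4 when each array was left out. The lower count of 0 became 2 with a floor of 4, 1 with treatment as a block, which is HGF on 210998_s_at, and ran from 0 to 2 when each array was left out. For IL1A on 208200_at the line difference of -1.16 reversed to 3.81 with the mean of probe sets per gene and to 6.87 with the brightest, because the other IL1A probe set enters. Across lines no member was called under any alternative fitted. Leaving out an array there leaves the difference of 1 line, which for LTA is 0.54 or -0.22. The labels give no replicate numbers. The arrays were paired by line for IL-32g, where no member was called with or without the block, and by treatment between lines, as above. Signal near the floor limits IL1A on 208200_at, CSF1 and HGF.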

Other observations

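Of 19 other cytokine genes of T cells with a probe set, 12 were below 5 on all arrays and 7 were measured. Of these, 5 were higher in MyLa and none lower, against 18.2% and 16.9% of all probe sets: OSM (5.92 ± 0.20, log2, SE), LIF (5.83 ± 0.10), IL13 (5.40 ± 0.30), IL5 (3.42 ± 0.23) and IL16 (2.79 ± 0.23), each with an adjusted p of 0.00274 or less in limma, and all bounds, since they were measured in MyLa only. These 5 entered the fit only through the MyLa arrays, where they are high, so nothing is read from their count. TGFB1 (-1.47) and IL32 (-0.14) were not called. With IL-32g in MyLa TGFB1 (2.46) and IL13 (0.76) were past 1.5-fold (median 0.45), and neither of the 2 measured in HH was (median -0.10). Among other TNF family ligands, 4 of 11 probe sets were higher in MyLa and 4 lower (median 0.28), against 18.2% and 16.9% of all probe sets. TNFSF4 was measured in MyLa only and both probe sets of TNFSF14 in HH only. Their differences are therefore bounds, and nothing is read from these counts. TNFSF4 (7.17 ± 0.10, log2, SE; adjusted p = 0.000138 in limma) and the 3 probe sets of TNFSF10, the TRAIL gene (2.23 to 2.70), were higher, and both probe sets of TNFSF14, the LIGHT gene (-3.61 and -3.17), and of TNFSF13B (-1.67 and -1.50) lower. With IL-32g, CD70 was higher in MyLa (1.22) and TNFSF13B on 223502_s_at lower (-0.92) of 8 (median 0.01), and TNFSF8 was lower in HH (-1.34) of 10 (median -0.04). Of all probe sets, 11.0% were higher with IL-32g by 1.5-fold and 9.14% lower in MyLa, and 5.43% and 4.02% in HH.

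Of adaptors of the IL-1 and TNF family receptors, 7 of 30 probe sets were higher in MyLa and 5 lower (median 0.00). These counts lie near the 18.2% and 16.9% of all probe sets. The lower were TRAF5 (beyond -7.38), both probe sets of TNFAIP3, MYD88 (-1.34) and IRAK1 (-1.25). IRAK2 was the furthest of the higher (at least 3.31), and the rest were of MAP3K14 and, with more than 1 probe set each, of MAP3K7 and TOLLIP. With IL-32g in MyLa TRAF1 was higher (1.39) and TRAF6 (-0.90) and TRAF3 (-0.66) lower of 29 (median 0.02). The other measured probe sets of TRAF1, TRAF6 and TRAF3 stood at -0.23, -0.13 and -0.58 there. In HH IRAK1 on 1555784_s_at was higher (1.14) of 30 (median -0.11), while its brighter probe set stood at -0.15. Transcripts of genes listed for the binding or control of AU-rich cytokine mRNA were measured for 17 of 17 genes with a probe set. This list is broader than the proteins that bind such elements, and holds CNOT1, CNOT7, CNOT8, PARN, MAPKAPK2 and AGO2 as well. Between lines 5 of 54 probe sets were higher in MyLa and 10 lower (median -0.24), against 18.2% and 16.9% of all probe sets. The higher were 2 of ELAVL1 (1.32 and 1.87) and 3 of RC3H2 (1.24 to 1.69). Most of the lower were of the single gene HNRNPD (-1.57 to -3.38), and the rest of ZC3H12D (-3.06), ZFP36 (-2.53) and CNOT7 (-2.25). With IL-32g in MyLa 4 of 54 were higher, of KHSRP (1.68), HNRNPD (1.55) and RC3H2 (at least 1.36, and 0.68). Another 3 were lower, of RC3H2 (-0.78), RC3H1 (-0.69) and AGO2 (-0.61), and the median was 0.00. The other measured probe sets of KHSRP stood at 0.13 and 0.10, and those of HNRNPD between -0.29 and 0.19. The brightest of RC3H2 and of RC3H1 stood at 0.03 and -0.03. In HH 6 of 53 were higher, CNOT7 (at least 1.07) and RC3H1 (0.91) highest, and 1 lower, RC3H2 (-0.70), with a median of 0.04. The brightest probe sets of CNOT7, RC3H1 and RC3H2 stood at 0.08, 0.05 and -0.01 in HH. Of all probe sets, 11.0% were higher with IL-32g by 1.5-fold and 9.14% lower in MyLa, and 5.43% and 4.02% in HH.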
